A study of Homo sapiens with 6 samples.

Results

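Autophagy genes were examined in a proximal tubular cell line under Cisplatin, with and without siRNA against NAT10. The list holds 38 genes chosen by their known roles, from the kinase complex that starts autophagy to the receptors that bring cargo to it, and 37 of them had at least 10 counts in at least 3 of the 6 libraries, out of 62754 genes in the deposited table, of which 19874 had enough counts to be tested. The gene left out, ULK2, had 3, 9 and 4 counts in the control libraries and 7, 12 and 3 in the others, too few for a comparison. RNA sequencing was performed on HK-2 cells, an immortalised line of human proximal tubular epithelial cells, that had been given Cisplatin, a platinum drug that crosslinks DNA and injures the kidney tubule. The CP+siNC group received Cisplatin and a negative control siRNA, and the CP+siNAT10 group received Cisplatin and an siRNA against NAT10, the enzyme that makes N4-acetylcytidine in RNA. Each group had 3 libraries, with total counts between 19321665 and 25192736. The comparison asks how transcripts of Cisplatin-treated cells differed when NAT10 was silenced. Cisplatin was common to all 6 libraries, so its own effect on autophagy genes was not measured here, and its dose and time are not in the labels.

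Macroautophagy encloses cytoplasm in a double membrane and delivers it to lysosomes. A kinase complex around ULK1 and a class III phosphatidylinositol 3-kinase complex around BECN1 start the membrane, which is then extended by lipid transfer and by the coupling of ATG8 proteins (the LC3 and GABARAP proteins) to phosphatidylethanolamine, a reaction that resembles ubiquitin conjugation. Receptors such as SQSTM1 bind both the cargo and the ATG8 proteins. In proximal tubular cells, which are rich in mitochondria and lysosomes, autophagy is known to protect against toxic and ischaemic injury. Transcript levels do not show the rate at which cargo is degraded.

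The siRNA target was checked first. NAT10 (ENSG00000135372) had 75.8, 71.4 and 73.2 CPM (the count relative to the TMM-scaled library size) in the CP+siNC libraries and 41.3, 40.5 and 42.4 CPM in the CP+siNAT10 libraries. The groups did not overlap, and the CP+siNAT10 mean was 56.4% of the control mean. Its log2 fold change was -0.82 (SE 0.0426, adjusted p = 2.79e-15). Every adjusted p-value was computed by Benjamini-Hochberg over the 19874 tested genes, from the quasi-likelihood F test of edgeR unless another tool is named, and genes with an adjusted p under 0.05 are said to rise or fall. The labels do not say whether the 3 libraries of a group came from separate cultures, so these p-values measure only the spread between the libraries, which may be technical.

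The labelled cell type was compared with marker genes. Among the proximal tubule markers, the CP+siNC means were 45.4 CPM for CDH6, 33.2 CPM for GGT1 and 31.4 CPM for PAX8. The named markers moved in both directions. With NAT10 silenced, CDH6 and PAX8 had higher means, of 62.8 and 47.2 CPM, and GGT1 had a lower mean, of 27.4 CPM. Several defining transporters and endocytic receptors were at or near 0. All 6 libraries together held 0 counts for SLC22A6, 1 for SLC22A8, 3 for LRP2, 23 for CUBN and 34 for SLC34A1. The glucose transporter SLC5A2 had a mean of 9.30 CPM in CP+siNC, and its CP+siNAT10 mean was higher, at 11.55 CPM. Of 5 epithelial markers, 4 had at least 1 CPM, led by KRT8 at 1455 CPM, and CDH1 had 6 counts in all; their sum was 1999, 2016 and 1964 CPM in CP+siNC and 1917, 1897 and 1931 CPM in CP+siNAT10. Among 5 immune cell markers only CD68, a lysosomal membrane protein that many cells make, and CD14 reached 1 CPM, and the sum was 209.8, 198.9 and 216.5 CPM in CP+siNC against 288.9, 266 and 269.3 CPM in CP+siNAT10. CD68 made up nearly all of that sum, while PTPRC had 81 counts and CD3E 38 counts over all libraries. Of 7 fibroblast markers, 2 reached 1 CPM, led by LUM at 11.2 CPM, and their sum was 22.2, 23.6 and 21.9 CPM in CP+siNC and 23.5, 30.2 and 24.5 CPM in CP+siNAT10. HK-2 thus stands for the proximal tubule only in part. The 4 endothelial markers stayed at or below 0.514 CPM in sum.

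Among the 37 autophagy genes, 11 were higher in CP+siNAT10 and 8 were lower, and 18 were not called. That is 29.7% higher and 21.6% lower, where 21.8% of all tested genes were higher and 22.3% were lower. Of the 37 genes, 34 had a mean of at least 5 CPM, and all 19 called genes were among them; of all genes at that level 29.1% were higher and 29% were lower. The median log2 fold change of the 37 was 0.083, against 0.007 for all genes tested. The share higher was above that of all genes tested and near that of genes of at least 5 CPM. The share lower was near that of all genes tested and below that of genes of at least 5 CPM. Of the 34 members at that level, 11 were higher and 8 were lower, and these differences were not tested. A positive log2 fold change was found for 26 of the 37 members and for 10126 of the 19874 genes tested. The CP+siNAT10 libraries all lay above the CP+siNC libraries for 17 genes and all below for 9, and the groups overlapped for 11; over all genes, 25.7% lay all above and 25.7% all below. Only ATG3 fell by more than 1 on the log2 scale, as 1.38% of all genes did with an adjusted p under 0.05, and no member rose by that much. With library size as the only scaling, 16 of the 37 genes were higher and 7 were lower, where 5050 of all 19874 genes were higher and 3786 were lower. Against a minimum fold of 1.2 (glmTreat), 5 were called: AMBRA1 and ATG4A higher, and ATG3, GABARAPL1 and PINK1 lower, where 1319 of all 19874 genes were higher and 1591 were lower. Whether a change in a transcript reflects fewer expressing cells or less RNA per cell cannot be told apart in bulk libraries.

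**Figure D1:**
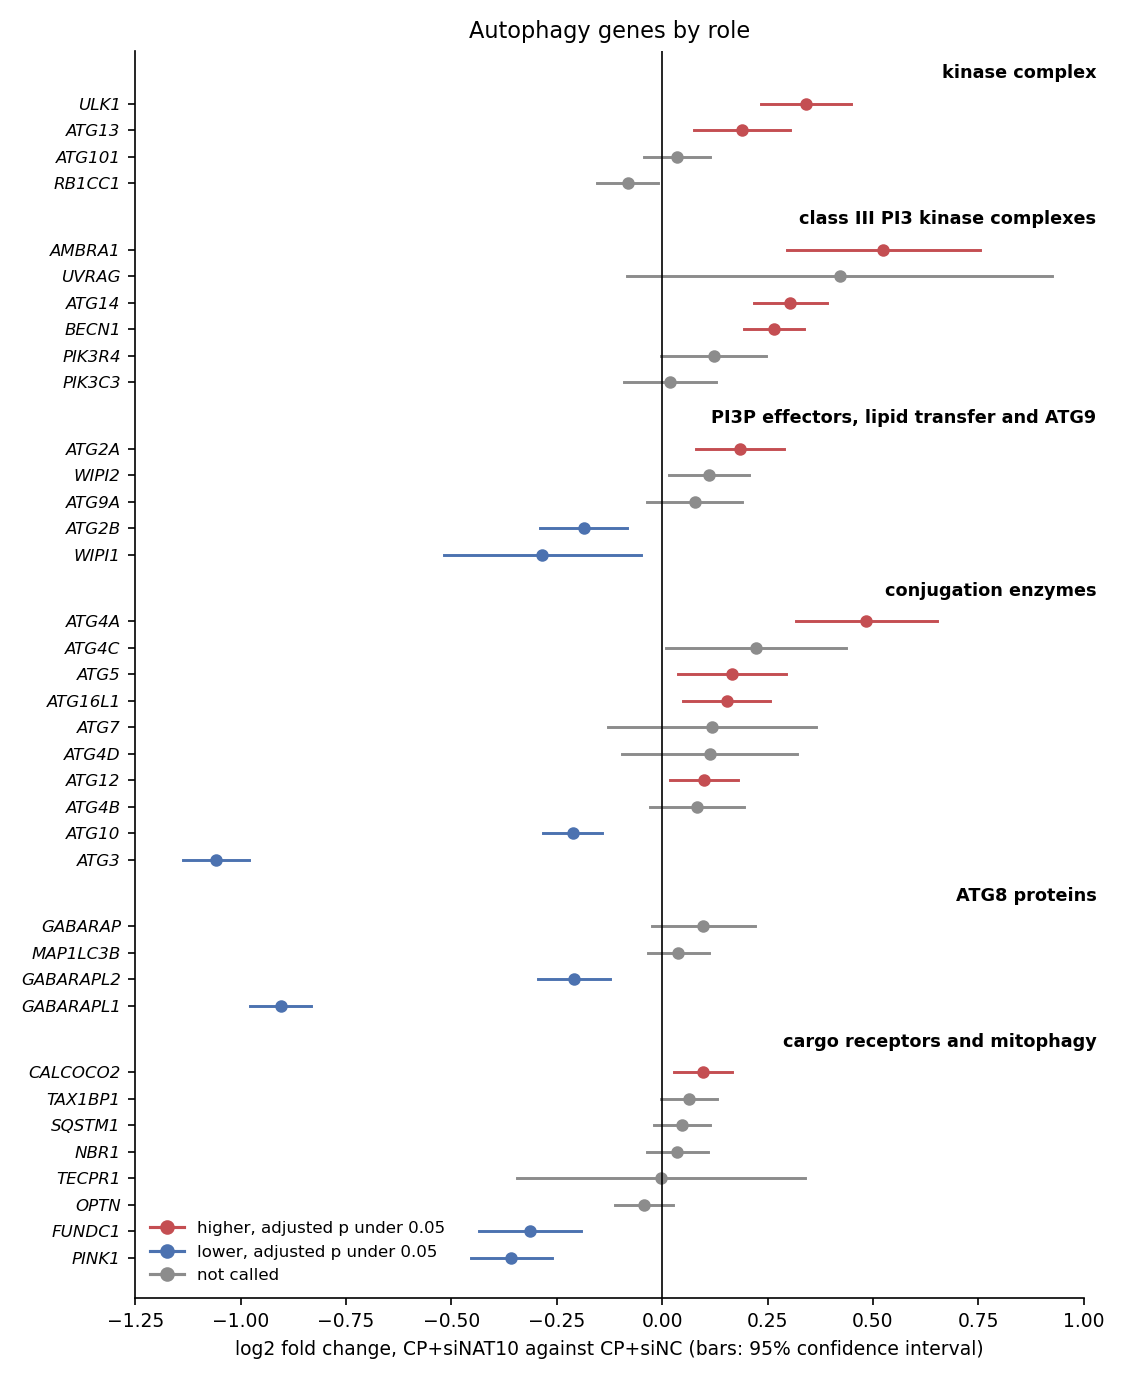
Log2 fold change of the 37 autophagy genes in CP+siNAT10 against CP+siNC (3 libraries each), grouped by role, where each point is the fitted value and each bar its 95% confidence interval. Red points are the 11 genes that rose, blue points the 8 that fell and grey points the 18 not called; ATG3 at -1.06 and GABARAPL1 at -0.91 lie farthest from 0.

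The largest fall was that of ATG3 (ENSG00000144848), the E2-like enzyme that transfers ATG8 proteins to phosphatidylethanolamine. ATG3 had 154, 150.1 and 152 CPM in CP+siNC and 69.3, 76.6 and 73.3 CPM in CP+siNAT10. Every CP+siNAT10 library was near 48.0% of the control mean, with a wide gap between the groups. Means fell from 152 ± 2.13 to 73.0 ± 3.67 CPM (± SD of 3 libraries; log2 fold change -1.06, SE 0.0382, edgeR adjusted p = 1.31e-18). The gene lies at chr3:112532510-112562046 on the minus strand of GRCh38, and no gene that overlaps it in the table had as much as 10% of its reads. Over all alternatives its log2 fold change lay between -1.09 and -1.02. The next largest fall was that of GABARAPL1 (ENSG00000139112), an ATG8 protein and thus a substrate of ATG3. GABARAPL1 had 152, 156 and 153 CPM in CP+siNC and 82.6, 80.9 and 82.7 CPM in CP+siNAT10. Here too the libraries of each group lay close together and the groups were far apart. Its mean dropped from 154 ± 2.37 to 82.1 ± 0.999 CPM (± SD of 3 libraries; log2 fold change -0.91, SE 0.0350, edgeR adjusted p = 5.35e-18), and the gene lies at chr12:10212458-10221799 on the plus strand. Its near-identical copy GABARAPL3 had 19 counts over all libraries, 0.129% of those of GABARAPL1. Apart from ATG3 and GABARAPL1, the other 35 genes had log2 fold changes between -0.36 and 0.52.

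The promoters of these 2 genes are shown because they had the largest falls. RefSeq windows on GRCh38.p14, from 250 bases before to 50 bases after a start site, were found for 34 of the 38 listed genes, with 42 windows in all. Capitals mark matches to the E-box CACGTG, its longer form TCACGTGA, which contains the E-box and is the core of the site bound by TFEB and its relatives, and TGACGTCA, the cAMP response element; both strands were searched, and the motifs were chosen after the values were seen. The ATG3 window is on the minus strand at chr3:112561913-112562212, and the GABARAPL1 window is on the plus strand at chr12:10212627-10212926.
ATG3: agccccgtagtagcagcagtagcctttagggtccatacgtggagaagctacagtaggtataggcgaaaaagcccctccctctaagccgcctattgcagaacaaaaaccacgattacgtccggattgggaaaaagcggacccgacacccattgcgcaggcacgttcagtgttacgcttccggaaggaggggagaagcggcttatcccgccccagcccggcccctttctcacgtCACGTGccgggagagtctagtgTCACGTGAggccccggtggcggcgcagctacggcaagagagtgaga
GABARAPL1: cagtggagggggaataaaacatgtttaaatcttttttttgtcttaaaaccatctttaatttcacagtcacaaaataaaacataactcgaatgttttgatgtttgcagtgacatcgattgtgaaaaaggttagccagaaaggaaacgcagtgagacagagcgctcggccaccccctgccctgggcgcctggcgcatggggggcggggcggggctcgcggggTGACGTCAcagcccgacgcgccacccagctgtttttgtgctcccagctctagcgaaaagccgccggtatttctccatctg
The ATG3 window held CACGTG at 2 places, the first starting 18 bases before the start site and the next lying inside TCACGTGA, just after it. The GABARAPL1 window held TGACGTCA 30 bases before its start site. This window lies wholly inside the gene as counted, which begins at chr12:10212458, so its start site is not the first one annotated. CACGTG was found in 7.26% of all 35116 windows, TCACGTGA in 0.98% and TGACGTCA in 1.85%. Among the 34 members with a window, CACGTG was found in ATG3 and ATG14, which rose, TCACGTGA only in ATG3 and TGACGTCA only in GABARAPL1. The motif TGATGNAA, bound by ATF4 with its partners, was in 3.62% of all windows and in 0 of the 34 members. GTAAACA, bound by FOXO factors, was in 3.42% of windows and in CALCOCO2 alone. TGACG, which TGACGTCA contains, was in 24.6% of windows and in 15 members (44.1%). Members were counted as genes, and some had several windows, so their shares and those of windows are not the same measure. These are matches of letters, and binding was not measured.

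**Figure D2:**
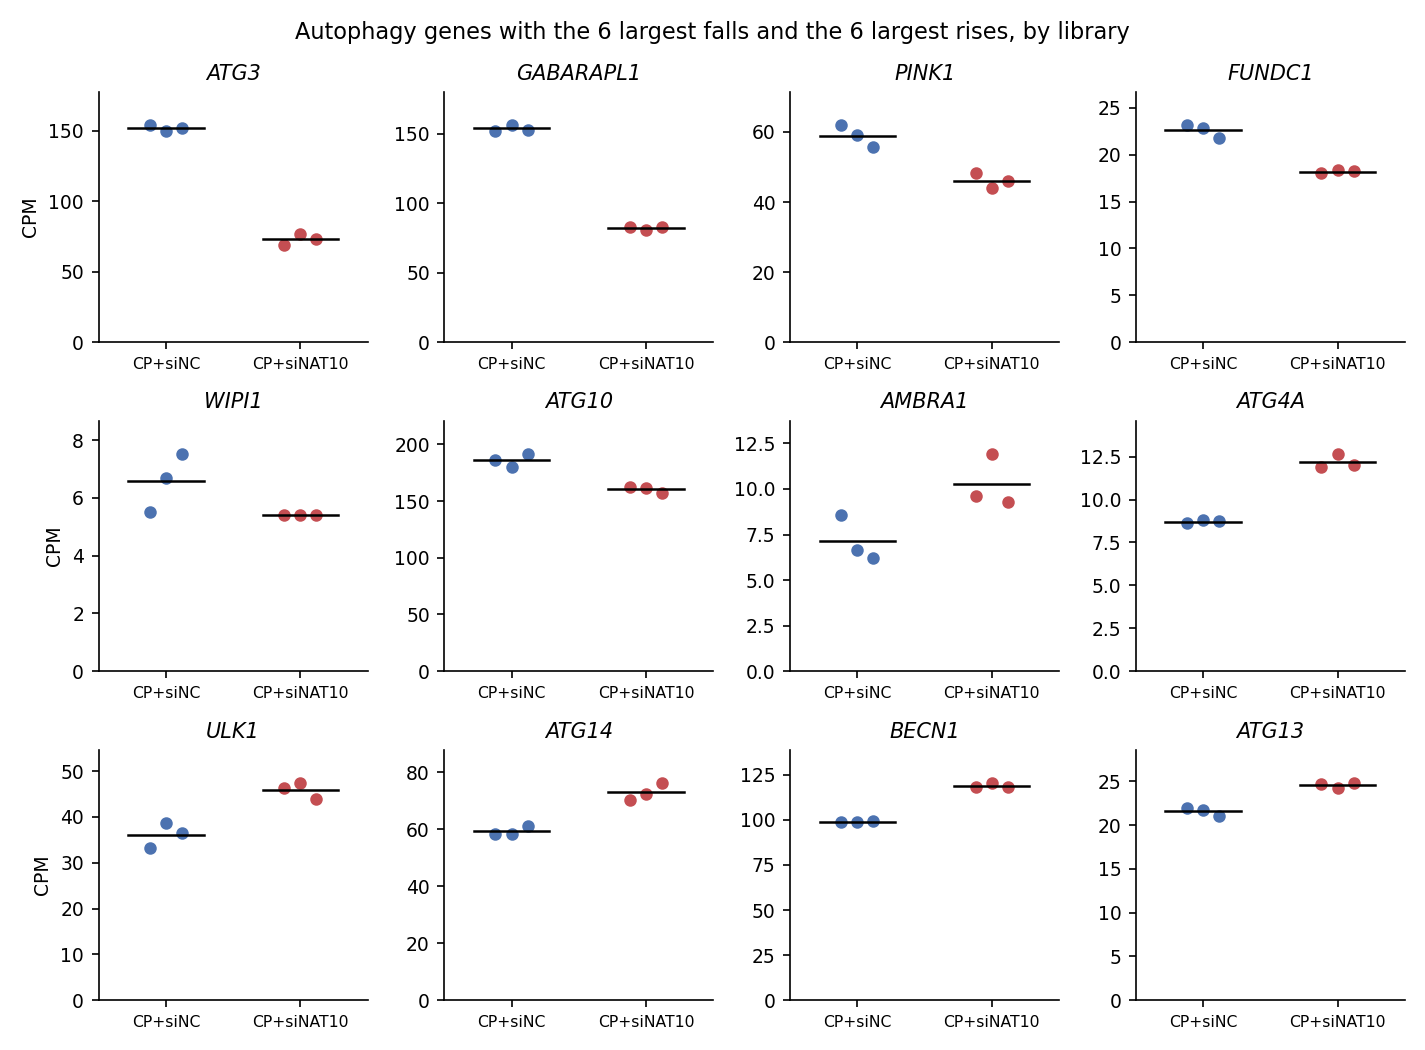
Level in CPM of the 12 autophagy genes with the 6 largest falls (ATG3 to ATG10) and the 6 largest rises (AMBRA1 to ATG13), where each point is a library, black lines are means of 3 libraries and every axis starts at 0. The groups are separate for all 12 genes, with gaps that are wide for ATG3 (at least 150.1 CPM against at most 76.6 CPM) and narrow for WIPI1 (at least 5.52 CPM against at most 5.41 CPM).

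In the kinase complex that starts autophagy, ULK1 and ATG13 rose, and RB1CC1 and ATG101 were not called. ULK1, the protein kinase that receives signals from mTORC1 and AMPK, had 33.1, 38.7 and 36.6 CPM in CP+siNC and 46.3, 47.5 and 43.9 CPM in CP+siNAT10. The CP+siNAT10 libraries were all above the controls, among which the spread was wider. This was a rise from 36.1 ± 2.81 to 45.9 ± 1.80 CPM (SD, n = 3 per group; log2 fold change 0.34, SE 0.0524, edgeR adjusted p = 4.07e-06), with a glmTreat adjusted p of 0.121. ATG13, the regulatory subunit that mTORC1 phosphorylates, had 21.9, 21.7 and 21.1 CPM in CP+siNC and 24.7, 24.3 and 24.9 CPM in CP+siNAT10. Its groups were apart by more than the spread within either, although the rise was small (log2 fold change 0.19, SE 0.0554, edgeR adjusted p = 0.00624), and it was called neither with DESeq2 (adjusted p = 0.0715) nor with glmTreat (adjusted p = 1). RB1CC1, the large scaffold subunit also called FIP200, averaged 125 CPM in CP+siNC and 118 CPM in CP+siNAT10. All its CP+siNAT10 libraries were below the controls, by an amount that just missed the threshold (log2 fold change -0.082, SE 0.0350, edgeR adjusted p = 0.0578) and passed it without CP+siNC replicate 3 (-0.10, adjusted p = 0.0443). ATG101, which stabilises ATG13, averaged 159.7 and 164 CPM, and its groups overlapped (95% interval of the log2 fold change -0.043 to 0.11).

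The class III phosphatidylinositol 3-kinase complexes make the lipid PI3P on the forming membrane. Of the 6 genes grouped here, which include the BECN1-binding AMBRA1, 3 rose and 0 fell. All 6 had a positive log2 fold change, as 10126 of the 19874 genes tested had. Of all genes of at least 5 CPM, 29.1% rose and 29% fell. BECN1, the scaffold of the complex, had 99.0, 98.8 and 99.1 CPM in CP+siNC and 118, 121 and 118 CPM in CP+siNAT10. The control libraries were almost equal and all CP+siNAT10 libraries were higher (log2 fold change 0.26, SE 0.0348, edgeR adjusted p = 3.28e-07; glmTreat adjusted p = 0.652). BECN1 overlaps PSME3 on the other strand, with 300 of its 6414 exon bases shared, and PSME3 fell (log2 fold change -0.95, edgeR adjusted p = 4.28e-18), and how far reads of PSME3 entered the count of BECN1 was not tested. ATG14, the subunit that directs the complex to the site of autophagosome formation, had 58.2, 58.4 and 61.2 CPM in CP+siNC and 70.3, 72.5 and 76.4 CPM in CP+siNAT10. The groups did not overlap, and the CP+siNAT10 libraries were the more spread out (log2 fold change 0.30, SE 0.0420, edgeR adjusted p = 7.65e-07; glmTreat adjusted p = 0.255). AMBRA1, a ubiquitin ligase adaptor that binds BECN1 and promotes ULK1 activity, had 8.55, 6.63 and 6.23 CPM in CP+siNC and 9.59, 11.9 and 9.27 CPM in CP+siNAT10. It had the largest rise of all members, from 7.14 ± 1.24 to 10.3 ± 1.46 CPM (SD, n = 3 per group; log2 fold change 0.52, SE 0.112, edgeR adjusted p = 0.000305), but few reads, so that its 95% interval ran from 0.30 to 0.75. The control library nearest to the CP+siNAT10 libraries was CP+siNC 1. AMBRA1 (chr11:46396414-46594045) and ATG13 (chr11:46617527-46674513) are close neighbours on chromosome 11, and HARBI1, which overlaps the start of ATG13 on the other strand, had a log2 fold change of 0.34 (edgeR adjusted p = 0.0381).

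The catalytic subunit PIK3C3 averaged 25.5 and 25.8 CPM in CP+siNC and CP+siNAT10, with a 95% interval of its log2 fold change of -0.09 to 0.13, and the regulatory kinase PIK3R4 averaged 21.5 and 23.4 CPM (interval -0.0024 to 0.25). For both genes the groups overlapped, although PIK3R4 was called higher with library size as the only scaling (0.16) and without CP+siNC replicate 1 (0.18, edgeR adjusted p = 0.0347). Without CP+siNC replicate 3 the log2 fold change of PIK3R4 was lower, at 0.077 (edgeR adjusted p = 0.406). UVRAG, which replaces ATG14 in the complex of late endosomes, was expressed at a low level, with a mean of 1.30 CPM in CP+siNC. Its control libraries disagreed, with 2.02, 0.934 and 0.935 CPM, and the CP+siNAT10 values of 1.80, 1.65 and 1.70 CPM lay between them. The result for UVRAG depended on single control libraries. Its log2 fold change was 0.42 with all libraries (edgeR adjusted p = 0.173) and 0.87 without CP+siNC replicate 1 (edgeR adjusted p = 0.00795). Without CP+siNC replicate 2 or 3 the value fell to 0.21 and 0.24 (edgeR adjusted p = 0.553 and 0.492).

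The genes that act on PI3P and supply lipid moved in both directions. ATG2A and ATG2B are paralogous lipid transfer proteins that feed the growing membrane. ATG2A rose from 27.1 ± 0.837 to 30.8 ± 0.530 CPM, and ATG2B fell from 33.7 ± 0.506 to 29.6 ± 1.18 CPM (SD, n = 3 per group), with log2 fold changes of 0.18 and -0.19 (edgeR adjusted p = 0.00404 and 0.00312). The groups of each gene were separate, both changes were small, and neither was called against a fold of 1.2 (glmTreat adjusted p = 1). WIPI1, a PI3P-binding propeller protein, had 5.52, 6.68 and 7.53 CPM in CP+siNC and 5.41, 5.40 and 5.40 CPM in CP+siNAT10. The lowest control, CP+siNC 1, was only just above the CP+siNAT10 libraries, and the fall was marginal (log2 fold change -0.28, SE 0.114, edgeR adjusted p = 0.0440). The call was lost when any library but CP+siNC replicate 1 was left out, with log2 fold changes from -0.19 without CP+siNC replicate 3 to -0.28 without CP+siNAT10 replicate 1, and WIPI1 was called in 4 of 14 settings in all. WIPI1 lies wholly inside a gene of the other strand, ENSG00000267009, that had 273 CPM in CP+siNC and fell (log2 fold change -0.41, edgeR adjusted p = 1.08e-10); their exons share 127 bases, and whether strand was used in counting is not stated, so the value of WIPI1 is uncertain. WIPI2, the related protein that recruits ATG16L1, averaged 39.0 and 42.2 CPM, with all CP+siNAT10 libraries above the controls and an adjusted p of 0.0506 from edgeR's test, and it was called with library size as the only scaling (0.15). ATG9A, the lipid scramblase of the seed vesicles, had a log2 fold change of 0.077 (95% interval -0.037 to 0.19), and it shares 1833 of its 4724 exon bases with another annotated gene of the same strand, ENSG00000284820, so reads could have been split between them. ENSG00000284820 had 119% as many reads and fell (log2 fold change -0.42, edgeR adjusted p = 7.90e-08), so the value of ATG9A is uncertain.

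The conjugation enzymes held the largest fall, that of ATG3 described above, beside several rises. Of the 10 genes, 4 rose, 2 fell and 4 were not called, beside 29.1% higher and 29% lower of all genes of at least 5 CPM, and the median log2 fold change was 0.115. ATG4A, a protease that trims ATG8 proteins before conjugation and prefers those of the GABARAP branch, had 8.60, 8.78 and 8.72 CPM in CP+siNC and 11.9, 12.7 and 11.99 CPM in CP+siNAT10. The groups were clearly separate, with an increase to 140.0% of the control mean (log2 fold change 0.48, SE 0.0816, edgeR adjusted p = 1.58e-05). The other ATG4 proteases, ATG4B, ATG4C and ATG4D, had log2 fold changes of 0.083, 0.22 and 0.11 and were not called, except ATG4C with library size as the only scaling (0.26). The value of ATG4D is uncertain, since it shares 341 of its 2278 exon bases with KRI1 on the other strand, which had 5963% of its reads. ATG7, the E1-like enzyme that activates both ATG8 proteins and ATG12, averaged 4.46 and 4.85 CPM, and its groups overlapped (95% interval -0.13 to 0.36). ATG7 and ATG3 act in sequence on the same substrates, and the fall of ATG3 was not accompanied by a call for ATG7.

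ATG12, ATG5 and ATG16L1 form the complex that acts as the E3 of ATG8 conjugation, and each rose slightly. Their log2 fold changes were 0.10, 0.17 and 0.15, with edgeR adjusted p = 0.0411, 0.0320 and 0.0144. All CP+siNAT10 libraries were above the controls for the 3 genes, but the calls were close to the threshold and depended on single libraries. Without CP+siNC replicate 2, ATG12 was at 0.082 and ATG16L1 at 0.12 (edgeR adjusted p = 0.159 and 0.106). Without CP+siNC replicate 3, ATG5 was at 0.14 and ATG12 at 0.10 (edgeR adjusted p = 0.136 and 0.0940). Leaving out CP+siNC replicate 1 also ended the calls of ATG12 (0.11) and ATG5 (0.16). So did leaving out CP+siNAT10 replicate 1 for ATG16L1 (0.13), replicate 2 for ATG5 (0.14), and replicate 3 for ATG12 (0.063) and ATG16L1 (0.14). None of the 3 was called with DESeq2 (adjusted p = 0.139, 0.176 and 0.0937 for ATG12, ATG5 and ATG16L1). ATG10, the E2-like enzyme that couples ATG12 to ATG5, had 186, 180.3 and 192 CPM in CP+siNC and 162, 162 and 158 CPM in CP+siNAT10. All its CP+siNAT10 libraries were lower (log2 fold change -0.21, SE 0.0341, edgeR adjusted p = 7.52e-06; glmTreat adjusted p = 1). This level is uncertain, because the end of ATG10 overlaps the ribosomal protein gene RPS23 on the other strand, with 374 exon bases shared. RPS23 had 247.6% of the reads of ATG10 and nearly the same log2 fold change, -0.21 (edgeR adjusted p = 5.35e-06), and how far reads of RPS23 entered the count of ATG10 was not tested.

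The ATG8 proteins coat the autophagosome membrane and bind the receptors. MAP1LC3B had 123, 129.6 and 128 CPM in CP+siNC and 129.7, 128 and 132 CPM in CP+siNAT10. Its groups overlapped and the log2 fold change was 0.038 (95% interval -0.034 to 0.11), with 1.34% as many reads on its near-identical copy MAP1LC3B2. It shares 150 exon bases with FBXO31 on the other strand, which had 21.7% as many reads and rose (0.47, edgeR adjusted p = 7.89e-08), so strand is a doubt here too. GABARAP had 23.1, 27.9 and 25.8 CPM in CP+siNC and 27.8, 27.2 and 27.4 CPM in CP+siNAT10. The lowest value was that of CP+siNC 1, the groups overlapped, and GABARAP was not called (log2 fold change 0.10, SE 0.0593, edgeR adjusted p = 0.191). It passed without CP+siNC replicate 2 (0.16, edgeR adjusted p = 0.0423), while without CP+siNC replicate 1 it was at 0.029 (edgeR adjusted p = 0.75). GABARAPL2, also called GATE-16, had 60.2, 57.2 and 57.6 CPM in CP+siNC and 49.7, 50.9 and 50.6 CPM in CP+siNAT10. The groups were separate, with a modest fall (log2 fold change -0.21, SE 0.0420, edgeR adjusted p = 0.000151; glmTreat adjusted p = 1). Of the 4 ATG8 genes, 2 fell and 0 rose, where 29% of all genes of at least 5 CPM fell and 29.1% rose. The fall of GABARAPL1 was far larger than that of GABARAPL2 (95% intervals -0.98 to -0.83 and -0.30 to -0.12).

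Per gene length, in RPKM (CPM per kilobase), GABARAPL1 was the most abundant of the 4 in CP+siNC at 37.9 ± 0.586 RPKM, ahead of MAP1LC3B at 25.2 ± 0.720, GABARAPL2 at 19.4 ± 0.550 and GABARAP at 13.1 ± 1.23 RPKM (SD, n = 3). In CP+siNAT10 the order changed, and MAP1LC3B at 25.8 RPKM stood above GABARAPL1 at 20.3 RPKM. The summed level of the 4 genes was 93.7, 97.6 and 95.5 RPKM in CP+siNC and 76.9, 76.3 and 77.5 RPKM in CP+siNAT10. Every CP+siNAT10 library was below every control. The share of GABARAPL1 in this sum was 39.7 ± 0.284% in CP+siNC and 26.3 ± 0.169% in CP+siNAT10, and that of MAP1LC3B was 26.3 ± 0.307% in CP+siNC and 33.6 ± 0.275% in CP+siNAT10 (SD, n = 3). GABARAP took 13.7 ± 1.01% in CP+siNC and 18.3 ± 0.200% in CP+siNAT10, with no rise of its own transcript called. GABARAP shares 691 of its 2266 exon bases with ENSG00000262526 on the same strand, which had 53.1% as many reads, and 571 with ENSG00000279641 on the other strand, so its level depends on how shared reads were assigned. These shares depend on the deposited gene lengths, which cover all annotated exons of a gene and not the transcript used.

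**Figure D3:**
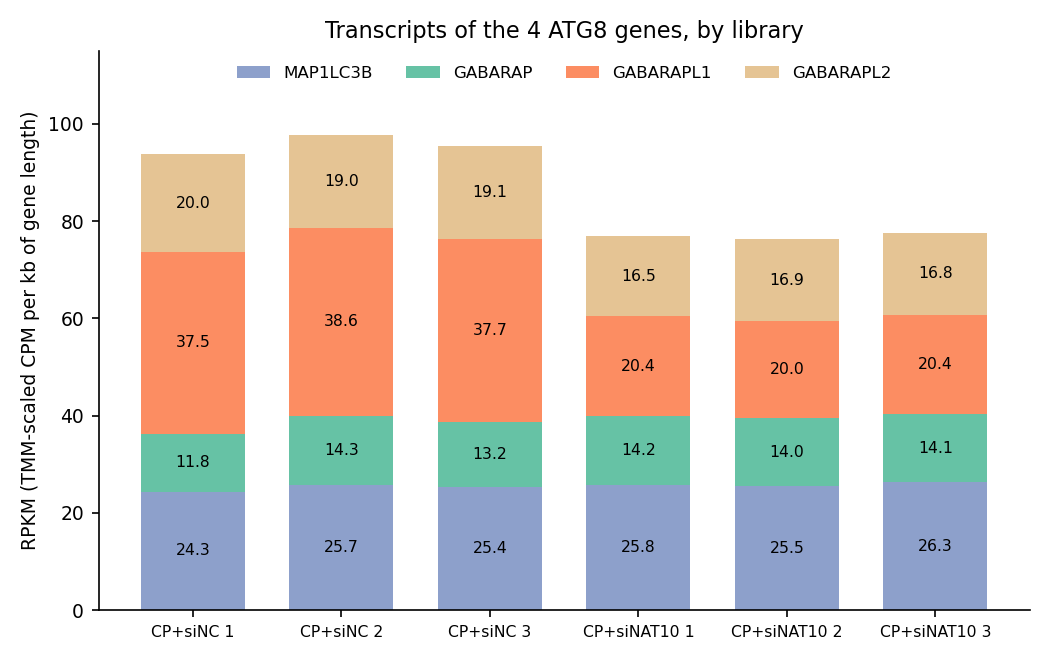
Level of the 4 ATG8 genes in each of the 6 libraries, in RPKM, stacked so that the height of a bar is their sum, with the value of each gene written on its segment. The sum lies between 93.7 and 97.6 RPKM in CP+siNC and between 76.3 and 77.5 RPKM in CP+siNAT10, and most of the difference is in the GABARAPL1 segment.

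Differences were small for the ubiquitin-binding cargo receptors, of which only CALCOCO2 was called, although with library size as the only scaling SQSTM1 (0.085) and TAX1BP1 (0.10) were called higher too. Of all genes of at least 5 CPM, 29.1% were higher and 29% were lower. SQSTM1, also called p62, which gathers ubiquitinated proteins, had 246, 252 and 249 CPM in CP+siNC and 255, 257 and 261 CPM in CP+siNAT10. The libraries of CP+siNAT10 were all higher by a small margin, and SQSTM1 was not called (log2 fold change 0.047, SE 0.0320, edgeR adjusted p = 0.249; 95% interval -0.019 to 0.11). NBR1, which acts with SQSTM1, had 104, 104 and 102 CPM in CP+siNC and 106, 104 and 108 CPM in CP+siNAT10. Its groups overlapped, and the 95% interval was -0.037 to 0.11. NBR1 shares 463 exon bases with ENSG00000267002 on the other strand, which had 48.6% as many reads and fell (-0.54, edgeR adjusted p = 2.37e-10). SQSTM1 shares 1582 with MRNIP (21.8% as many reads, 0.011) and 105 with MGAT4B (42.2% as many reads, -0.32), also on the other strand, so the same doubt over strand applies to both. OPTN, a receptor for ubiquitin-marked mitochondria and bacteria, had 257, 254 and 255 CPM in CP+siNC and 239, 247 and 256 CPM in CP+siNAT10. The groups overlapped because CP+siNAT10 3 was as high as the controls, and the 95% interval was -0.11 to 0.025. TAX1BP1, which clears protein aggregates, had 204, 207 and 203 CPM in CP+siNC and 213, 216 and 211 CPM in CP+siNAT10. Again all CP+siNAT10 libraries were a little higher, without a call (log2 fold change 0.063, SE 0.0323, edgeR adjusted p = 0.12). CALCOCO2, also called NDP52, a receptor for bacteria and damaged mitochondria, had 175, 169 and 165 CPM in CP+siNC and 182, 180.4 and 181 CPM in CP+siNAT10. This small rise was called (log2 fold change 0.10, SE 0.0335, edgeR adjusted p = 0.0204), but not without CP+siNC replicate 2 or 3, where the log2 fold change was 0.089 and 0.073 (edgeR adjusted p = 0.0706 and 0.142). Over the 5 receptors, the limit of a 95% interval farthest from 0 was that of CALCOCO2, at 0.16.

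PINK1, the kinase that marks depolarised mitochondria for removal, had 62.1, 59.1 and 55.8 CPM in CP+siNC and 48.2, 43.9 and 46.0 CPM in CP+siNAT10. The groups were separate, and the CP+siNAT10 mean was 78.0% of the control mean (log2 fold change -0.36, SE 0.0470, edgeR adjusted p = 3.18e-07). The antisense gene PINK1-AS shares 1907 of the 4836 exon bases of PINK1, had about as many reads and a log2 fold change of -0.34 (edgeR adjusted p = 4.56e-07), and reads of the 2 genes cannot be told apart if strand was not used. FUNDC1, a receptor in the outer mitochondrial membrane that acts in hypoxia, had 23.2, 22.9 and 21.8 CPM in CP+siNC and 18.002, 18.3 and 18.2 CPM in CP+siNAT10. The CP+siNAT10 libraries lay within a narrow range below the controls (log2 fold change -0.31, SE 0.0592, edgeR adjusted p = 7.02e-05; glmTreat adjusted p = 0.293). TECPR1, which links autophagosomes to lysosomes, was expressed at 2.55 CPM in CP+siNC, and its log2 fold change was -0.0024 with a 95% interval of -0.34 to 0.34, too wide to show a change of modest size. Its sign depended on the setting, and was positive, for example, without CP+siNC replicate 2 (0.16).

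**Figure D4:**
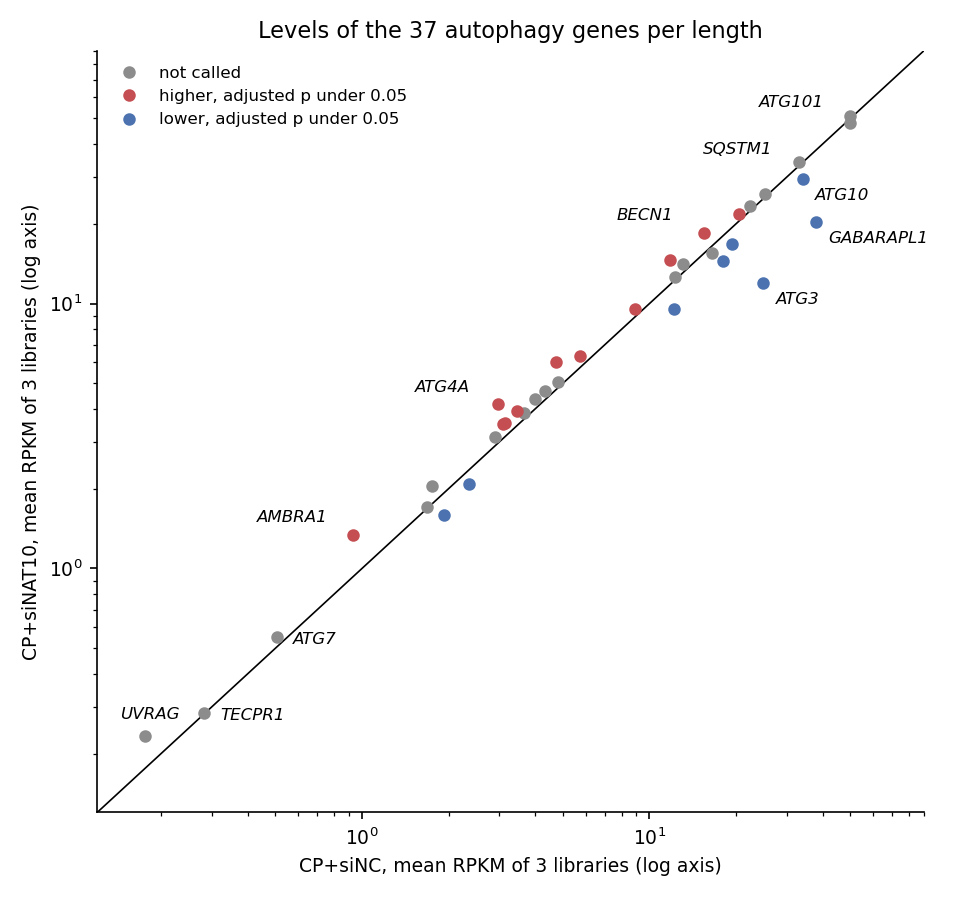
Mean level per gene length of the 37 autophagy genes in CP+siNC and CP+siNAT10, in RPKM on log axes, where the line marks equal levels. UVRAG is lowest in CP+siNC at 0.176 RPKM, OPTN lies beside ATG101 at the top at 49.6 RPKM, and the points farthest below the line are ATG3 (24.9 to 11.95 RPKM) and GABARAPL1 (37.9 to 20.3 RPKM).

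Across the list, levels per length differed far more between genes than between groups. In CP+siNC, ATG101 and OPTN were highest, with OPTN at 49.6 ± 0.295 RPKM (SD, n = 3) and ATG101 the same within its SD of 2.18 RPKM. ATG101 shares 614 of its 3199 exon bases with ENSG00000257663 on the other strand, which had 16.5% as many reads, so the doubt over strand applies to its level. GABARAPL1, ATG10 and SQSTM1 followed at 37.9 ± 0.586, 34.2 ± 1.05 and 33.1 ± 0.391 RPKM, and the last 2 were also within about their spread, although the level of ATG10 is uncertain for its overlap with RPS23. At the low end were AMBRA1 at 0.930 ± 0.162, ATG7 at 0.505 ± 0.0290, TECPR1 at 0.282 ± 0.0540 and UVRAG at 0.176 ± 0.0852 RPKM. ATG3 was as abundant as MAP1LC3B in CP+siNC, at 24.9 ± 0.348 against 25.2 ± 0.720 RPKM. ATG7 and ATG3, which act in sequence on ATG8 proteins, thus differed widely in transcript level, with ATG7 at 0.505 RPKM and ATG3 at 24.9 RPKM in CP+siNC.

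Short sequences in 3′ UTRs were compared with the falls, because an earlier analysis of these counts had picked out the heptamer GACTATC, the overlapping heptamer ACTATCA and a further heptamer, CATATTC, as those whose carriers had the lowest log2 fold changes. The members are part of the genes on which that choice rested, so what follows is a description and no test. In the longest annotated 3′ UTR of each gene (GENCODE 29), 7 of the 37 members held at least 1 of the 3, which is 18.9%, against 17.3% of 13080 protein-coding genes. Of these 7, ATG3, ATG10 and ATG2B fell, and PIK3C3, TAX1BP1, TECPR1 and WIPI2 were not called. The value of ATG10 is uncertain for its overlap with RPS23. The 3 sites of PIK3C3 (chr18:42081873-42085287) lie beyond the end of this gene as it was counted, at 42081421. PIK3C3 thus holds a match only by the GENCODE 29 annotation. Of the 30 members without a match, 11 rose, 5 fell and 14 were not called. Over all these genes, 40.4% of those with a match were called lower and 19.8% higher, and of those without a match 23.3% and 29.1%, a difference that the choice of the heptamers builds in. The median log2 fold change was -0.0024 for the 7 and 0.099 for the 30, and over all genes it was -0.082 with a match and 0.031 without. The 3′ UTRs of the 7 were longer, with a median of 2879 bases against 1325. The sites of ATG3 and of NRBF2 and LAMTOR5, the genes of the wider pathway with the largest falls, are shown with the match in capitals and 11 bases on each side.
ATG3: tgaccattgacCATATTCatcaatatata
NRBF2: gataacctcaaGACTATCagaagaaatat
LAMTOR5: ctctatggaccGACTATCaagatattagt
The ATG3 site is in the 3′ UTR at chr3:112532606-112532634 on the minus strand (GRCh38), the NRBF2 site at chr10:63154764-63154792 on the plus strand, and the LAMTOR5 site at chr1:110401340-110401368 on the minus strand. In NRBF2 and LAMTOR5 the base after the capitals completes ACTATCA, which overlaps GACTATC. GABARAPL1, PINK1, FUNDC1, GABARAPL2 and WIPI1 held none of the 3 heptamers in their 3′ UTRs. Nor were they found in TMEM41B, BNIP3, CALCOCO1, ATF4 and MITF, genes of the wider pathway that also fell. The sequence of the NAT10 siRNA is not given in the sources used here, and the part of pairing between an siRNA and these sites in the falls was not tested.

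Other genes of the pathway, from 5 lists, were compared in the same fit. Of 93 such genes 86 were tested, and 26 rose (30.2%) and 19 fell (22.1%), with a median log2 fold change of 0.032. The shares were 21.8% and 22.3% for all genes tested and 29.1% and 29% for those of at least 5 CPM. The share that rose was above that of all genes tested and near that of genes of at least 5 CPM. The share that fell was near that of all genes tested and below that of genes of at least 5 CPM. These differences were not tested. The counts of the 5 lists below rest on few genes each and are given as a description. Among 13 tested further core genes, 4 rose (30.8%) and 2 fell (15.4%). NRBF2, a subunit of the ATG14 form of the PI3-kinase complex, fell from 38.5 ± 2.35 to 19.8 ± 0.311 CPM (SD, n = 3 per group). Its log2 fold change was -0.96 (SE 0.0551, edgeR adjusted p = 2.89e-14). Of the same complex, BECN1 and ATG14 rose, and PIK3C3 and PIK3R4 were not called. AMBRA1, which binds BECN1, rose as well. TMEM41B, a scramblase needed for autophagosome formation, fell (log2 fold change -0.36, SE 0.0734, edgeR adjusted p = 0.000162; glmTreat adjusted p = 0.145), and ULK3, a relative of ULK1, rose (log2 fold change 0.28, SE 0.0814, edgeR adjusted p = 0.00529; 0.0627 with DESeq2). The other core genes that rose were the PI3P-binding WDR45 and WDR45B and the membrane-curving SH3GLB1, named after their values were seen. Among 19 tested receptors for other cargo, 4 rose (21.1%) and 7 fell (36.8%). The mitophagy receptor BNIP3 fell with a log2 fold change of -0.36, as did CALCOCO1, a receptor for endoplasmic reticulum and Golgi, at -0.36, and ATL3, a receptor for tubular endoplasmic reticulum, rose by 0.46 (edgeR adjusted p = 1.14e-08, 4.30e-09 and 2.03e-10). Beside ATL3, the receptors that rose were BCL2L13 for mitochondria and TOLLIP and WDFY3 for protein aggregates, and the others that fell were CCPG1, RTN3 and SEC62 for endoplasmic reticulum, FKBP8 for mitochondria and NCOA4 for ferritin, also named after their values were seen.

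Among 15 genes for fusion with the lysosome, 5 rose (33.3%) and 1 fell (6.67%), beside 21.8% and 22.3% of all genes tested and 29.1% and 29% of those of at least 5 CPM. VPS41, a subunit of the HOPS tether, PLEKHM1, which links HOPS to RAB7A and ATG8 proteins, and STX17, the syntaxin of the autophagosome, rose by 0.49, 0.41 and 0.41 on the log2 scale (edgeR adjusted p = 1.96e-09, 3.28e-06 and 7.46e-08). The other HOPS subunits that rose were VPS16 and VPS39, and the syntaxin STX7 fell, named after their values were seen. Of 30 tested genes of mTORC1, AMPK and nutrient sensing, which act on ULK1 and ATG13, 12 rose (40%) and 4 fell (13.3%), beside the same shares of all genes, 21.8% and 22.3%, or 29.1% and 29% at 5 CPM or more. LAMTOR5, a Ragulator subunit that anchors mTORC1 to lysosomes, had 31.7, 34.8 and 30.6 CPM in CP+siNC and 13.0, 12.6 and 11.2 CPM in CP+siNAT10. This was the largest change in any pathway list (log2 fold change -1.41, SE 0.0669, edgeR adjusted p = 4.66e-16), and the antisense gene LAMTOR5-AS1, with as many reads, also fell (log2 fold change -1.05, edgeR adjusted p = 3.59e-13), so the 2 could share reads. FNIP2, a partner of folliculin, and the kinase MTOR itself rose by 0.78 and 0.56 (edgeR adjusted p = 9.30e-09 and 4.51e-12). The other 10 genes of this list that rose were RPTOR and MLST8 of mTORC1, its inhibitors TSC1, TSC2 and DDIT4, the AMPK subunits PRKAA1, PRKAA2, PRKAB2 and PRKAG2, and FNIP1. Beside LAMTOR5, the genes that fell were RHEB, the GTPase that activates mTORC1, and SESN1 and SESN3, which restrain it; all but LAMTOR5 in these 2 sentences were named after their values were seen. SESN3 had a mean of only 0.957 CPM in CP+siNC, and its groups overlapped (edgeR adjusted p = 0.0416). Among 9 tested transcription factors that act on autophagy genes, 1 rose (11.1%) and 5 fell (55.6%), with a median log2 fold change of -0.223; the shares of genes of at least 5 CPM were 29.1% and 29%, and of all genes tested 21.8% and 22.3%. ATF4, which induces autophagy genes under amino acid or endoplasmic reticulum stress, fell from 253 ± 7.71 to 198 ± 1.30 CPM (SD, n = 3 per group; log2 fold change -0.36, SE 0.0333, edgeR adjusted p = 6.38e-10). MITF, a relative of TFEB, fell by 0.32 (edgeR adjusted p = 1.18e-05; glmTreat adjusted p = 0.221), and DDIT3, also called CHOP, rose by 0.31 (edgeR adjusted p = 4.17e-06; glmTreat adjusted p = 0.249), although it overlaps MBD6 and MARS1 on the other strand, which rose too. TFE3, a relative of TFEB, FOXO4 and NFE2L2 fell too. TFEB itself had a mean of 0.948 CPM in CP+siNC and was not called; these 4 were named after their values were seen.

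**Figure D5:**
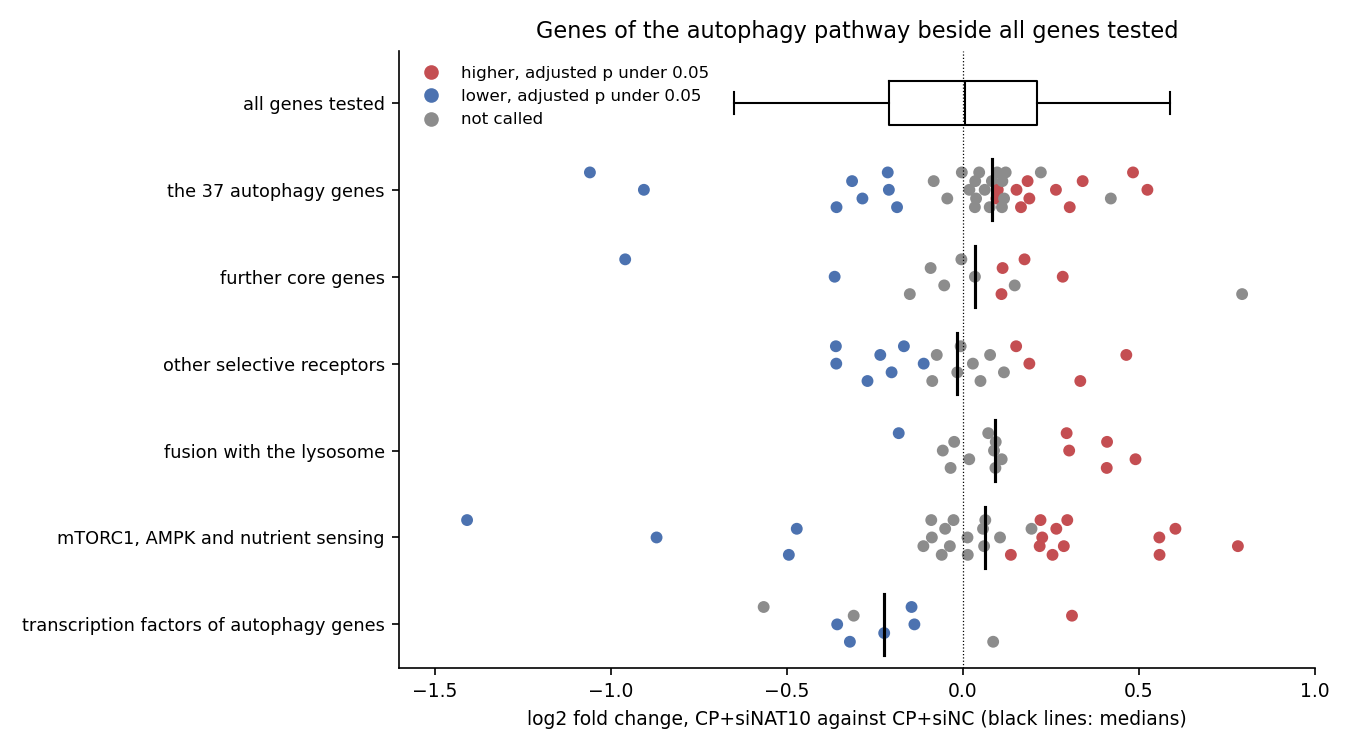
Log2 fold change in CP+siNAT10 against CP+siNC for the 37 autophagy genes and 5 lists of further pathway genes (points, with a black line at each median), beside a box plot of all 19874 genes tested (box from quartile to quartile, whiskers from the 5th to the 95th percentile). The medians lie between -0.223 for transcription factors and 0.093 for fusion genes, and LAMTOR5 at -1.41 is the lowest point.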

How the data were processed

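The libraries were made from total RNA with a stranded mRNA kit whose molecular identifiers serve to correct for duplicates, and the submitters' processing notes name Trimmomatic 0.36, STAR 2.5.3a, Subread 1.5.1 and GRCh38. The authors counted reads per gene with featureCounts and deposited raw counts with the length of each gene. The annotation, the strand setting and whether reads with the same identifier were merged before counting are not given in the sources used here. Without strand, reads of overlapping genes cannot be assigned, and unmerged copies would add spread. Of the tested genes 95.3% were found in GENCODE 29 by identifier, and 99.9% of these overlapped the given position on the same strand.

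The deposited counts were compared by edgeR (4.0.16, with limma 3.58.1, under R 4.3.3). filterByExpr, set to at least 10 counts and a total of 15, left 19874 genes of 62754. Libraries were scaled by TMM, and groups were compared with glmQLFit and glmQLFTest without covariates. CPM refers to the TMM-scaled library size, and RPKM divides it by the deposited length. A standard error is the size of the fold change over the root of its F value. Promoters were read from RefSeq (GRCh38.p14) and 3′ UTRs from GENCODE 29 with Python 3.11.15, with matplotlib 3.10.9 for the plots. Groups and replicate numbers were taken from the sample titles, and all 6 libraries were used. Within a group, counts of library pairs differed by more than sampling noise, and all were kept as separate samples. This spread may be technical, so it cannot show whether the libraries came from separate cultures.

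Values by library are given for the 6 called members with the largest rise and the 6 with the largest fall, the ATG8 genes and 5 receptors, and from each other pathway list up to 3 called genes of at least 5 CPM with the largest change are named; further genes of these lists are marked in the text as named after their values were seen. The members and lists were chosen with earlier results of these data known, so no test of a list was made. The 13 alternatives were RLE and library size scaling, a filter of 10 counts in 3 libraries and no filter, the replicate number as a block, DESeq2 1.42.0, glmTreat against a fold of 1.2 and leaving out each of the 6 libraries.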

Additional observations from a re-analysis of the deposited data

How the results depend on the processing

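Of the 37 members, 11 were higher and 8 lower in CP+siNAT10; leaving out each library in turn gave 8 to 11 higher and 7 or 8 lower. NAT10, ATG3, GABARAPL1, PINK1, AMBRA1 and ATG4A were called in the same direction under all 13 alternatives. The number of members higher was 7 with DESeq2 and 2 with glmTreat against a fold of 1.2, where 3 were lower. With glmTreat, 8 of the other pathway genes were higher and 7 were lower, against 26 and 19. A test against a fold of 1.2 is stricter by construction, and the cause of the smaller count with DESeq2 was not tested. Over all genes, 3103 were higher and 3232 lower with DESeq2 and 1319 and 1591 with glmTreat, against 4331 and 4440. The median log2 fold change of the members was 0.083 and became 0.12 with library size as the only scaling, which moved the median of all genes from 0.007 to 0.044 and gave 5 further members as higher: PIK3R4, WIPI2, ATG4C, SQSTM1 and TAX1BP1, named after their values were seen. Leaving out a library gave medians from 0.068 to 0.10. TECPR1, which was not called under any setting, changed sign, with log2 fold changes of 0.035 for library size only, 0.0086 without a filter, 0.0067 with the replicate block and 0.0050 with DESeq2, and from -0.12 to 0.16 when a library was left out; the cause was not tested. WIPI1 was called in 4 of 14 settings, the main one included, and ATG12 in 7.

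The replicate numbers are shared between groups. With the replicate block 11 members were higher and 7 lower, NAT10 had a log2 fold change of -0.83, and among the members and named genes WIPI1 alone lost its call (edgeR adjusted p = 0.0514). Libraries of the same number had correlations of 0.011, 0.067 and -0.205 between their deviations from the group means, so the numbers gave no sign of pairing.

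Depth limits the genes with few reads. UVRAG, TECPR1, ATG7, WIPI1, AMBRA1, ATG4C and ATG4D had standard errors above 0.1 on the log2 scale, and ULK2 could not be compared at all.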
